A study of Drosophila melanogaster with 7 samples.

Results

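The genes CG3625, Amnionless, CG11562 and U2af38 lie next to each other on the left arm of chromosome 2 of Drosophila melanogaster. They were chosen by name, as a run of adjacent genes whose intensity differed between glands with and without GAL4, and each was read through the probe sets that carry its symbol alone in the platform annotation. Each of the 4 had exactly 1 such probe set (Entrez gene IDs 33198, 33199, 33200 and 33201 in the order above), and 0 further probe sets named any of them together with another gene. They are 4 of 11982 fly genes with a probe set of their own. Because the GAL4 and w1118 arrays were what chose them, their intensities are given as a description with no test.

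Affymetrix arrays were hybridised with RNA of prepupal salivary glands dissected 14 h after puparium formation, following a 30 min heat shock at 37 °C. Animals of every group were reared at 25 °C. The line P{hs-GAL4}X1, carrying a GAL4 transgene under a heat-shock promoter at 2 copies, was hybridised to 3 arrays (replicates 1 to 3). P{GAL4-Hsp70.PB}89-2-1, called line 89 here, had 1 array from animals with 2 copies and 1 from animals with 1 copy. The strain w1118 had 2 arrays and carried no GAL4. Heat shock was given at 9 h after puparium formation in the GAL4 lines and at 9.5 h in w1118, so this interval, the strain background and GAL4 itself cannot be told apart in any comparison with w1118. The position of either transgene insertion was not given in the sources used here.

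GAL4 is a yeast transcription activator that binds upstream of the yeast galactose genes, and in flies it is used to switch on transgenes placed behind its binding sites. U2af38 encodes the small subunit of U2AF, the splicing factor that recognises the 3' end of introns, where the small subunit reads the terminal AG and the large subunit, encoded by U2af50, reads the pyrimidine tract. Amnionless encodes a membrane protein that carries the receptor cubilin to the cell surface, and together they take up proteins in fly nephrocytes. No role is given here for CG3625 or CG11562. In the Release 6 annotation the span of Amnionless lies within that of CG3625, and the spans of CG11562 and U2af38 overlap at their ends. CG11562 lies beyond CG3625 without overlapping it, and 2 antisense RNA genes annotated among the 4 had no probe set. Whether probes of one gene also lie in transcribed sequence of another was not analysed here.

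Over all fly probe sets, log2 intensities correlated at r = 0.978 between the w1118 arrays and at r = 0.957 to 0.985 among the X1 arrays and r = 0.935 between the line 89 arrays, across probe sets that are not independent. X1 replicate 1 had the lowest median intensity (33.7) and the largest share of probe sets under an intensity of 16 (30.0%), against 18.8% to 23.7% in the other 6 arrays. Bacterial poly-A control RNAs had less 5' than 3' signal in X1 (mean log2 ratio -3.83 to -3.31) than in line 89 (-1.93 and -1.77) and w1118 (-1.42 and -1.12), whereas the same ratio for the fly actin control overlapped between X1 (-1.98 to -1.26) and w1118 (-1.43 and -1.38). For the fly eIF4a control the ratio was lower in X1 (-1.03 to -0.84) and in line 89 (-1.44 and -0.80) than in w1118 (-0.71 and -0.66), with no overlap. The part of these differences in the results was not tested. Of the salivary gland markers, 11 were measured. Their summed intensity was 35633 to 36387 in X1, 34518 (2 copies) and 31693 (1 copy) in line 89, and 36555 and 39279 in w1118. The brightest of them on every array were Eig71Ea (12824 to 14135) and Eig71Ed (13956 to 15359). The median log2 difference of the 11 was -1.12 in X1 and -0.89 in line 89, beside -0.12 and 0 over all genes. Fat body markers were also detected, with 4 summing to 7673 to 9848 in X1, 12862 and 13217 in line 89 and 13517 and 14593 in w1118. Its part in the values below was not tested, and in whole-gland RNA fewer cells of a type and less RNA per cell cannot be told apart. Summed hemocyte markers (5 measured, 4 of them under 100 on every array) lay at 117 to 182 in X1, 325 (2 copies) and 114 (1 copy) in line 89, and 224 and 192 in w1118. Neuron markers (3 measured, 2 of them under 100 on every array) summed to 86.4 to 141 in X1. They summed to 115 and 128 in line 89 and 252 and 160.3 in w1118. Muscle markers (2 measured, 2 of them under 100 on every array) summed to 20.9 to 60.8 in X1. In line 89 they summed to 29.3 and 45.2, and in w1118 to 29.4 and 30.03.

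The levels of the 4 genes set the first question, how each differed from w1118 in the 2 GAL4 lines. All 4 were higher in every GAL4 array than in either w1118 array, and by at least 2-fold, a criterion met by 3.80% of the 11898 genes with a probe set on the chromosome arms. For further scale, 7.50% of all fly probe sets were called higher and 10.6% lower in X1 against w1118 (limma, Benjamini-Hochberg adjusted p under 0.05). Nothing is read from these shares, since the same arrays chose the genes. CG3625 had intensities of 12129, 12206 and 12243 in X1, 10962 in the 2-copy and 12872 in the 1-copy array of line 89, against 271 and 244 in w1118. Its 5 GAL4 values sat within 1.17-fold of each other and stood at the 99.7th to 99.8th percentile of their arrays, whose highest intensities were 16393 to 17212. Whether intensities near this upper end are still proportional to RNA was not tested, so the folds of CG3625 and its differences among GAL4 arrays are those of intensity alone. The X1 arrays averaged 12193 ± 58.4 (SD, n = 3) and the w1118 arrays 258 ± 19.0 (SD, n = 2), a 47.3-fold ratio from the log2 means (log2 difference 5.57 ± 0.06, SE). Tight agreement at this brightness was usual: of 114 probe sets with a GAL4 mean of at least 10000, 57 had a smaller spread over the 5 GAL4 arrays than CG3625, and the median spread was 1.17-fold.

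Amnionless had 4263, 8345 and 7497 in X1, 6303 in the 2-copy and 10078 in the 1-copy array of line 89, against 209 and 229.7 in w1118. All GAL4 values lay above both w1118 values, while X1 and line 89 overlapped. The highest value of all belonged to the line 89 array with 1 copy. Means were 6702 ± 2154 in X1 (SD, n = 3) and 219 ± 14.7 in w1118 (SD, n = 2), 29.4-fold apart (log2 difference 4.88 ± 0.35, SE).

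CG11562 had 1636, 2383 and 2467 in X1, 2199 in the 2-copy and 2859 in the 1-copy array of line 89, against 39.6 and 22.1 in w1118, which lay at percentiles 48.1 and 28.8 of those arrays. No GAL4 array was near the w1118 values. Means of 2162 ± 458 in X1 (SD, n = 3) and 30.9 ± 12.4 in w1118 (SD, n = 2) gave the largest ratio of the 4, at 71.9-fold (log2 difference 6.17 ± 0.36, SE). That ratio leans on the dim control values: the log2 difference was 5.05 with a floor of 64 in place of 16.

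U2af38 differed least. It had 544, 900.1 and 916 in X1, 473 in the 2-copy and 297 in the 1-copy array of line 89, against 103 and 104 in w1118. Here the GAL4 arrays were spread 3.09-fold, with all 3 X1 arrays above both line 89 arrays and the 1-copy array lowest of the 5. Means were 787 ± 210.3 in X1 (SD, n = 3) and 103 ± 0.55 in w1118 (SD, n = 2), 7.41-fold apart (log2 difference 2.89 ± 0.29, SE).

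**Figure D1:**
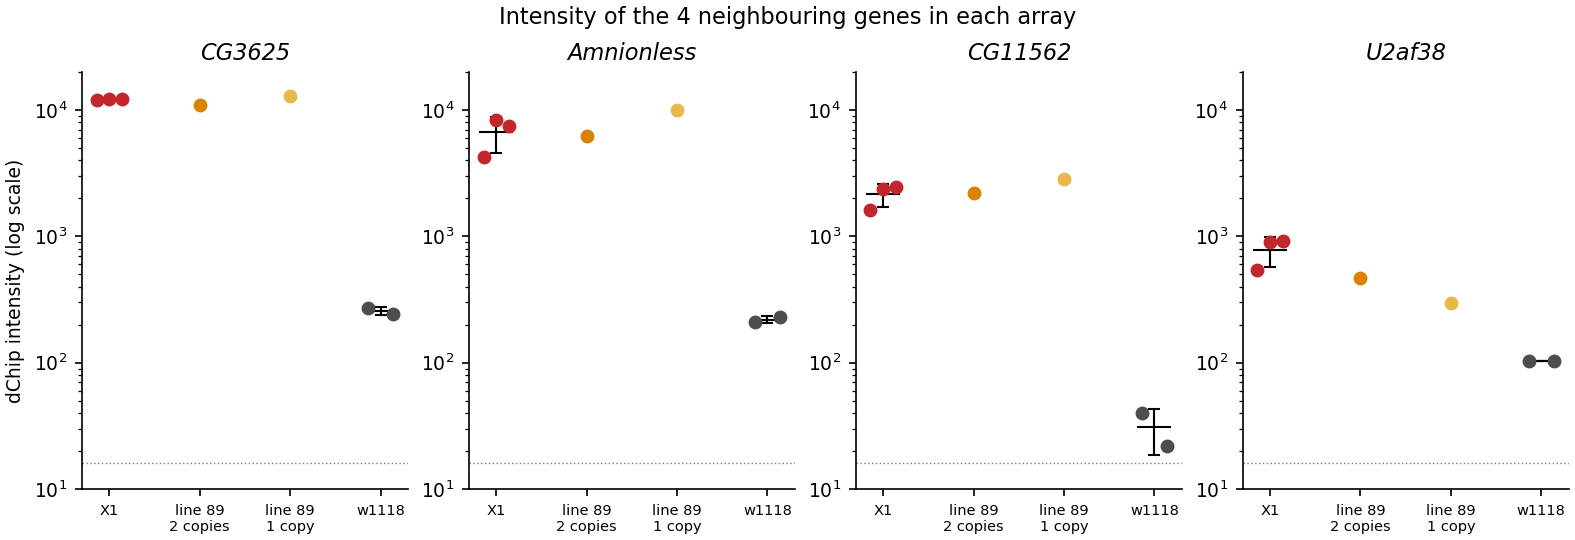
Intensity on a log axis of CG3625, Amnionless, CG11562 and U2af38 in each array, in the order X1 (3 arrays), line 89 with 2 copies, line 89 with 1 copy and w1118 (2 arrays); points are arrays, bars are mean and SD of X1 and w1118, and the dotted line is the floor of 16. All GAL4 arrays lie above both w1118 arrays for each gene, and U2af38 alone steps down from X1 to 2 copies to 1 copy.

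X1 replicate 1 was the lowest X1 array for Amnionless, CG11562 and U2af38 and within 1.01-fold of the others for CG3625. It was also the array with the lowest median intensity. Without it the log2 differences of X1 from w1118 were 5.57 for CG3625, 5.17 for Amnionless, 6.36 for CG11562 and 3.14 for U2af38. Over all arrays the lowest GAL4 value exceeded the highest w1118 value 40.4-fold for CG3625, 18.6-fold for Amnionless, 41.3-fold for CG11562 and 2.86-fold for U2af38.

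In line 89, as in X1, U2af38 differed least from w1118. With both arrays taken as 1 group, line 89 exceeded w1118 by 5.53 ± 0.11 for CG3625, 5.19 ± 0.40 for Amnionless, 6.41 ± 0.37 for CG11562 and 1.86 ± 0.35 for U2af38 on the log2 scale (SE from 1 fit of the 7 arrays). These values share the w1118 arrays with those of X1 above. Set directly against line 89, X1 differed by 0.04 ± 0.10 for CG3625, -0.31 ± 0.37 for Amnionless and -0.24 ± 0.34 for CG11562, each smaller than its SE. U2af38 was 2.04-fold higher in X1 (1.03 ± 0.32), where X1 had 2 copies and the line 89 group mixed a 2-copy and a 1-copy array. Against the 2-copy array alone, at equal copy number, its log2 difference was 0.70, and against the 1-copy array alone 1.37. Its sign was the same under every alternative run, although other floors and leaving out w1118 arrays could not move it. The signs of the other 3 genes turned under at least 1 alternative each.

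The copy number of line 89 was compared with 1 array on each side and so has no test or replicate check. The log2 difference of the 2-copy from the 1-copy array was -0.23 for CG3625, -0.68 for Amnionless and -0.38 for CG11562. U2af38 went the other way, at 0.67, or 1.59-fold higher with 2 copies. Over all fly probe sets this difference had a median of 0 and quartiles of -0.39 and 0.48, and over the 1526 probe sets with a line 89 mean of at least 1000 a median of -0.05. The 2-copy array was lower for 42.5% and higher for 45.5% of all probe sets. The difference was at or above that of U2af38 for 18.6% of probe sets and at or below that of Amnionless for 15.1%, so neither stood outside the bulk of the array. The 2 other floors could not move these differences, since all the values lay above them. Under 3 other normalizations of the same 2 arrays the signs were the same for each of the 4 genes. The smallest difference was then -0.14 for CG3625 after quantile normalization.

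Read along the series of w1118, 1 copy and 2 copies, CG3625 was 49.98-fold over the w1118 mean with 1 copy and 42.6-fold with 2 copies. Amnionless was 46.0-fold over it with 1 copy and 28.8-fold with 2 copies, and CG11562 96.6-fold with 1 copy and 74.3-fold with 2 copies. U2af38 reached 2.87-fold with 1 copy and 4.57-fold with 2 copies, and 7.41-fold in X1, which also carries 2 copies.

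**Figure D2:**
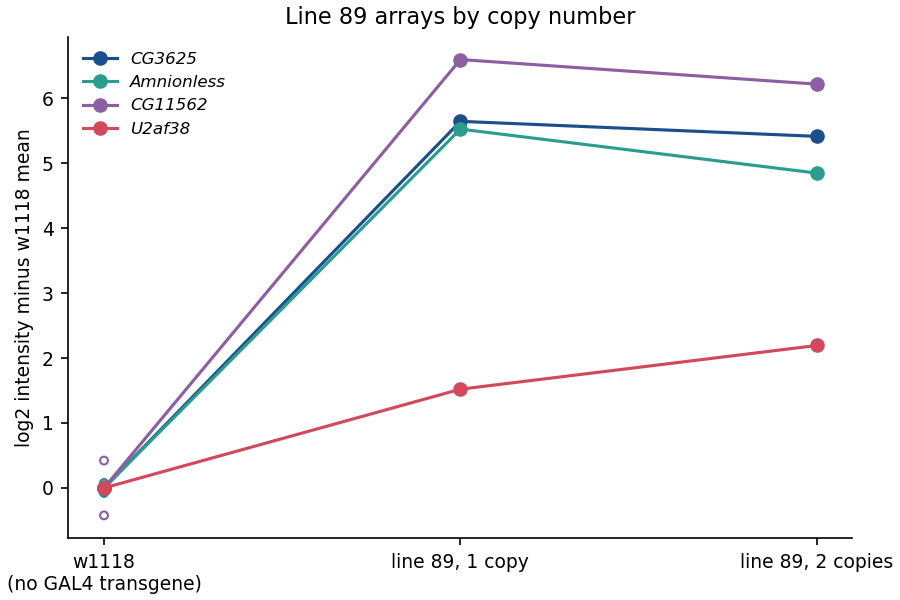
Log2 intensity minus the w1118 mean for the 4 genes in w1118 and in line 89 with 1 copy and 2 copies; open circles are the 2 w1118 arrays, filled circles the w1118 mean and the single line 89 arrays. CG3625, Amnionless and CG11562 are at their highest with 1 copy, while U2af38 is higher with 2 copies (2.19) than with 1 (1.52).

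The genes on each side of the 4 were read next. A window of 10 annotated genes on each side, plus the 2 antisense genes inside, held 22 genes, of which 17 had a probe set of their own. These were not used to choose the 4, although the choice of the 4 stopped at them. In X1 against w1118, 1 of the 17 rose, 6 fell and 10 were not called, where 7.50% of all probe sets rose and 10.6% fell, with a median log2 difference of -0.54 beside -0.09 over all fly probe sets. In line 89, where 4.38% of all probe sets were called, 2.73% higher and 1.65% lower, 0 of the 17 rose (limma; 6 of the 17 had an unadjusted p under 0.05 in either direction) and 3 fell. Set directly against line 89, with 1.98% of all probe sets called (0.730% higher and 1.25% lower), X1 differed for 0 of the 17 (limma; 5 at an unadjusted p under 0.05).

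CG11601, the gene next to CG3625 on the outer side, was low where its neighbour was high. It had 84.8, 150.2 and 167 in X1, 112 in the 2-copy and 279 in the 1-copy array of line 89, against 983 and 809 in w1118. All 5 GAL4 arrays lay below both w1118 arrays. It fell 6.93-fold in X1 (log2 -2.79 ± 0.37, limma adjusted p = 0.0205), and its difference of -2.34 ± 0.55 in line 89 did not pass (limma adjusted p = 0.106). The X1 call was lost without w1118 replicate 1 or 2 or X1 replicate 2 or 3 (log2 -2.98 to -2.65). It was also lost with a floor of 64 (limma adjusted p = 0.0652). The next gene outward, smo, which encodes the Hedgehog signal transducer Smoothened, had 50.1, 194 and 169 in X1 and 114 and 109 in line 89, against 259.7 and 211 in w1118, and was not called in either comparison.

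On the other side the first gene, Stip1, encodes a co-chaperone that links Hsp70 and Hsp90. It had 4856, 8950.1 and 8076 in X1, 2179 in the 2-copy and 1055 in the 1-copy array of line 89, against 1538 and 1762 in w1118. X1 lay above all other arrays, whereas the 2 line 89 values fell on both sides of w1118. Stip1 rose 4.29-fold in X1 (log2 2.10 ± 0.32, limma adjusted p = 0.0288) and differed by -0.12 ± 0.46 in line 89 (limma adjusted p = 0.984). The difference between X1 and line 89 themselves was 2.22 ± 0.42 and did not pass over all probe sets (limma adjusted p = 0.0801). It did pass once probe sets with line 89 and w1118 means both under 100 were left out, whatever their X1 mean (limma adjusted p = 0.0310). The X1 call of Stip1 was lost without w1118 replicate 1 or 2 or X1 replicate 2 or 3 (1.93 to 2.20). It was also lost with a floor of 64 and with all 5 GAL4 arrays as 1 group. Pi3K21B, beyond it, had no probe set of its own.

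Further out on that side the next 5 measured genes all fell in X1. Plc21C, a phospholipase C gene, had 129.6, 139.99 and 146 in X1 and 165 (2 copies) and 237 (1 copy) in line 89, against 315 and 544 in w1118. It fell by 1.58 on the log2 scale in X1 (limma adjusted p = 0.0362). The call was lost without any single X1 array (-1.62 to -1.53, limma adjusted p = 0.0840 to 0.121). It was also lost with a floor of 64, with hybridization scaling and with all 5 GAL4 arrays as 1 group. CG11912, CG11911 and CG33127 are neighbouring genes of the serine protease family. CG33127 had 44.6, 32.9 and 62.4 in X1, 47.9 in the 2-copy and 217 in the 1-copy array of line 89, against 3850.45 and 4304 in w1118. It fell 90.3-fold in X1 (log2 -6.50 ± 0.32, limma adjusted p = 0.00266) and also in line 89 (log2 -5.32 ± 0.76, limma adjusted p = 0.0323), where the call was lost without any single X1 or w1118 array (-5.40 to -5.24, limma adjusted p = 0.0657 to 0.147).

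CG11911 lay at the floor in the GAL4 glands. It had 15.97, 15.8 and 14.1 in X1 and 18.7 and 16.8 in line 89, against 183 and 157 in w1118, so it fell at least 10.6-fold in X1 (limma adjusted p = 0.000908) and 9.57-fold in line 89 (limma adjusted p = 0.000695). CG11912 had 16.4, 27.9 and 23.0 in X1, 50.1 in the 2-copy and 194 in the 1-copy array of line 89, against 316 and 298 in w1118. It fell 14.0-fold in X1 (limma adjusted p = 0.00528), its line 89 difference of -1.64 ± 0.67 was not called, and with all 5 GAL4 arrays as 1 group its call ended (limma adjusted p = 0.155). CG43755 had 9.25, 14.8 and 6.97 in X1 and 26.1 and 21.0 in line 89, against 92.9 and 67.6 in w1118. It fell at least 4.95-fold in X1 (limma adjusted p = 0.00504) and 3.38-fold in line 89 (limma adjusted p = 0.0155), which was lost without X1 replicate 2 or 3 (limma adjusted p = 0.0586 and 0.0634), and with a floor of 64 both its calls ended. The other 9 measured neighbours were called in neither comparison: Rpp30, Dus1, CG17075, CG3345, mbm, CG11555, CG17078, CG31921 and Ent1, with X1 differences from -1.61 for CG11555 to 0.39 for Dus1.

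**Figure D3:**
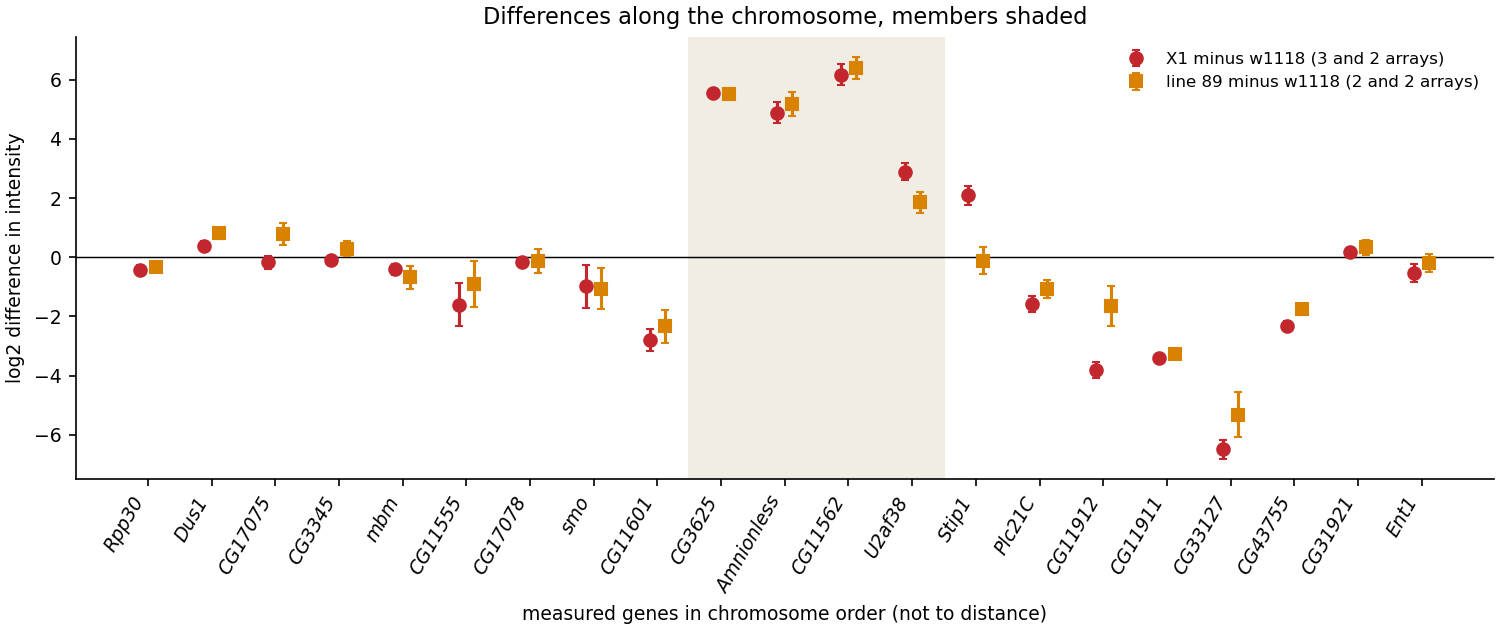
Log2 difference from w1118 of X1 (circles) and line 89 (squares), with SE from limma, for the 21 genes of the window that had a probe set, in their order along the chromosome and not to distance; CG3625, Amnionless, CG11562 and U2af38 are shaded. The shaded genes stand between 1.86 and 6.41, the gene on their left lies at -2.79 in X1, and Stip1 on their right is high in X1 and near 0 in line 89.

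How often such blocks occurred was counted by the same criterion of every GAL4 array being at least 2-fold brighter than either w1118 array, a criterion set after the values were seen. In order along the arms, and passing over genes with no probe set, the 452 genes that met it fell into 371 runs. Of these 307 were single genes, 49 were pairs, 13 held 3 genes and 2 held 4. CG3625 to U2af38 was 1 of the 2 longest, and the other was l(1)G0196, CG17600, S6kII and CG17598 on the X chromosome. This is a count over the arrays that chose the genes and carries no test.

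The splicing machinery around U2af38 was followed through lists of genes that share a role with it. Of 15 measured genes of U2AF, the branch point and the U2 particle, 4 rose, 3 fell and 8 were not called in X1, with a median log2 difference of 0.18 beside -0.12 over all genes, and in line 89 1 rose and 1 fell (median 0.07 beside 0). The shares called over all probe sets were 7.50% higher and 10.6% lower in X1 and 2.73% higher and 1.65% lower in line 89. U2af50, the partner of U2af38, had 2842, 3344 and 3102 in X1, 2091 in the 2-copy and 2598 in the 1-copy array of line 89, against 869 and 922 in w1118. The groups did not overlap, and it rose in X1 (log2 1.79 ± 0.09, limma adjusted p = 0.00300) and in line 89 (1.38 ± 0.14, limma adjusted p = 0.0144), the second call being lost without w1118 replicate 1 or 2 or X1 replicate 3 (1.34 to 1.42, limma adjusted p = 0.0596 to 0.0715). Unlike U2af38, its 1-copy value was above its 2-copy value. The SF3a subunit gene noi rose in X1 by 2.52, and Sf3b1, of the SF3b complex, by 1.48. Sf3b5 fell in both lines (-1.18 in X1 and -1.56 in line 89), Prp5, a helicase gene, fell in X1 by 0.96, and Sf3b6 fell by 0.31, although its difference was 0.36 with hybridization scaling. The X1 call of noi was lost with all 5 GAL4 arrays as 1 group, and those of Sf3b1, Sf3b5, Sf3b6 and Prp5 without 2 to 4 of the single arrays (limma adjusted p = 0.0579 to 0.182). The line 89 call of Sf3b5 was lost without w1118 replicate 1 or 2, the 2-copy array or X1 replicate 2 (limma adjusted p = 0.0841 to 0.1301).

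In the rest of the core spliceosome 5 of 18 measured genes rose, 1 fell and 12 were not called in X1 (median 0.14 beside -0.12 over all genes), where 7.50% of all probe sets rose and 10.6% fell. Prp16, a helicase gene of the second splicing step, rose by 5.28 ± 0.19 in X1 (limma adjusted p = 0.00162) and by 3.999 ± 0.23 in line 89 (limma adjusted p = 0.00293), with 1440.03, 1863 and 1655 in X1, 589 (2 copies) and 782 (1 copy) in line 89, and 36.9 and 48.8 in w1118. snRNP-U1-70K (1.97) and SmD3 (1.57) rose and Prp8 (-1.37) fell in X1, each losing its call without w1118 replicate 1 or 2 or X1 replicate 2 or 3 (limma adjusted p = 0.0580 to 0.162). In line 89, where 2.73% of all probe sets rose and 1.65% fell, Prp16 was the only call of the 18 (median 0.17 beside 0).

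Among SR proteins and splicing regulators 3 of 12 measured genes rose, 3 fell and 6 were not called in X1 (median 0.33 beside -0.12), and in line 89 2 rose and 1 fell (median -0.05 beside 0). Over all probe sets 7.50% rose and 10.6% fell in X1, and 2.73% rose and 1.65% fell in line 89. tra2, which encodes a cofactor of sex-specific splicing, had 5951, 6670.3 and 6239.6 in X1, 4248 in the 2-copy and 1670.1 in the 1-copy array of line 89, against 123 and 139.6 in w1118. It rose by 5.58 ± 0.09 in X1 (limma adjusted p = 0.000572) and by 4.34 ± 0.44 in line 89 (limma adjusted p = 0.0137). Like U2af38 it was highest in X1 and lowest of the GAL4 arrays with 1 copy. Rsf1, a repressor of SR protein function, rose by 2.56 in X1 and 2.53 in line 89. The line 89 calls of tra2 and Rsf1 were lost without w1118 replicate 1 or 2 or X1 replicate 2 or 3 (limma adjusted p = 0.0512 to 0.0768). The splicing switch gene Sxl fell in X1 (-2.04) and in line 89 (-1.98), and tra, its splicing target, fell by 0.91 in X1, a call that ended with hybridization scaling. glo (1.51) rose and the hnRNP gene Hrb87F (-2.12) fell in X1, both losing their calls without X1 replicate 1, 2 or 3 and Hrb87F also without w1118 replicate 2 (limma adjusted p = 0.0547 to 0.147).

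Among the partners of Amnionless, both measured cubilin genes were lower in X1. Of 10 measured genes of the cubilin receptor and endocytosis, 1 rose, 4 fell and 5 were not called in X1 (median -0.25 beside -0.12), and 0 were called in line 89 by limma. The shares over all probe sets were 7.50% up and 10.6% down in X1 and 4.38% called in line 89. Cubn had 96.4, 111 and 76.8 in X1, 116 in the 2-copy and 215 in the 1-copy array of line 89, against 224 and 237 in w1118. Cubn2 had 51.2, 59.02 and 46.6 in X1, 46.8 and 138 in line 89, against 159 and 209 in w1118. Both cubilin genes fell in X1 (-1.30 ± 0.18, limma adjusted p = 0.0239, and -1.81 ± 0.18, limma adjusted p = 0.0110), while Amnionless was 29.4-fold higher. The call of Cubn was lost without w1118 replicate 1 or 2 or X1 replicate 1 and that of Cubn2 without X1 replicate 3 (limma adjusted p = 0.0511 to 0.133), and both ended with hybridization scaling. AP-2mu, of the clathrin adaptor, rose by 0.64 and Rbsn-5, an early endosome gene, fell by 1.13. The AP-2mu call was lost without w1118 replicate 1 or X1 replicate 2 or 3 (limma adjusted p = 0.0516 to 0.0661), and that of Rbsn-5 with hybridization scaling.

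Markers of nephrocytes, the cells in which Amnionless is known to act, were read beside it. Of 7 measured, 0 rose, 3 fell (Cubn, Cubn2 and Hand, with -2.17 for Hand) and 4 were not called in X1, and by limma 0 were called in line 89. For these and the other markers the shares to read against are 7.50% of all probe sets higher and 10.6% lower in X1, and 4.38% called in line 89. With 7 genes, 0 rises lies near the share over all probe sets and is not read as a result. The summed intensity of the nephrocyte markers was 493 to 734 in X1, 514 in the 2-copy and 1117 in the 1-copy array of line 89. It was 1151 and 1462 in w1118. Of the 7, 3 were under 100 on every array: sns, kirre and Klf15, at no more than 43.3. Of the other marker lists, salivary gland had 1 rise (Sgs3, 1.15) and 2 falls (Sgs7, -1.12, and sage, -1.13), fat body 1 fall (Fbp2, -5.51), hemocytes 1 fall (NimC1, -1.17), and neurons and muscle 0 calls in X1. Without single arrays the calls of Hand (w1118 replicate 1 or 2), Sgs3 (w1118 replicate 1 or 2, X1 replicate 2 or 3), Sgs7 (X1 replicate 2 or 3), NimC1 (any X1 array) and sage (any X1 or w1118 array) were lost (limma adjusted p = 0.0510 to 0.209).

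The genes most like each of the 4 in pattern were found by the root mean square difference of log2 profiles over the 7 arrays, each centred on its own mean, among 7856 probe sets with 1 symbol and at least median brightness. The profile of CG3625 was matched most closely by CG5196 (0.04), Chi (0.11), which encodes a cofactor of LIM-domain proteins, and CG34136 (0.13). That of Amnionless was matched by Pof (0.26), CG14131 (0.27) and CG15653 (0.32). That of CG11562 was matched by Ccm3 (0.26), PGRP-LB (0.30) and CG6136 (0.31). CG5196 had 10285, 10676 and 10440 in X1 and 8998 (2 copies) and 10295 (1 copy) in line 89, against 228 and 199.5 in w1118, a course within 0.04 log2 units of CG3625 on average. U2af38 had other neighbours in pattern: Adss (0.17), an adenylosuccinate synthase gene, Phax, which encodes an adaptor for export of spliceosomal RNAs (0.18), and fbl, a pantothenate kinase gene (0.19). Phax had 226, 455 and 469 in X1 and 249.5 and 122 in line 89, against 38.1 and 45.2 in w1118, with the 1-copy array lowest of the 5 GAL4 arrays and X1 replicate 1 below the 2-copy array.

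Between the 4 genes themselves the same distance was 0.42 for CG3625 and Amnionless, 0.43 for CG3625 and CG11562, and 0.64 for Amnionless and CG11562, but 1.49, 1.32 and 1.83 for U2af38 against each of these. Over the 5 GAL4 arrays alone Amnionless and CG11562 moved together (r = 0.98). CG3625 correlated less closely, at 0.45 with Amnionless and 0.37 with CG11562. U2af38 correlated at -0.11, -0.13 and -0.17 with CG3625, Amnionless and CG11562. These 5 points share the arrays that chose the genes, are too few for a test and are given as a description.

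**Figure D4:**
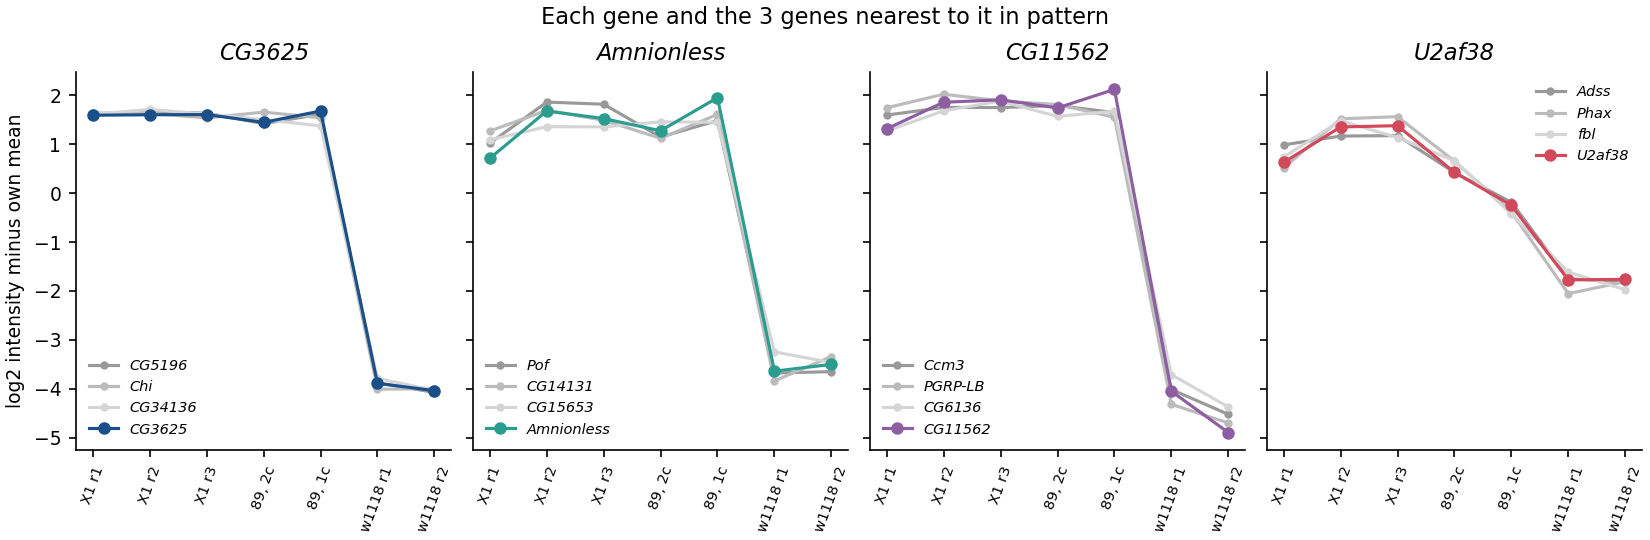
Log2 intensity minus its own mean over the 7 arrays (floor of 16) for each of the 4 genes in colour and the 3 genes nearest to it in pattern in grey; r is the replicate and 2c and 1c are 2 copies and 1 copy of line 89. The 5 GAL4 arrays are spread 1.17-fold for CG3625, 2.36-fold for Amnionless, 1.75-fold for CG11562 and 3.09-fold for U2af38, and U2af38 and its matches reach their highest values in X1 replicates 2 and 3 and, of the GAL4 arrays, their lowest with 1 copy.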

How the data were processed

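Per the series text, the authors computed 1 intensity per probe set in dChip and normalized all arrays to a baseline array with median intensity 145, so the deposited values are intensities on a linear scale; which dChip version and model, and how low values were handled, is not given in the sources used here. In all, 18952 probe sets were deposited, of which 183 controls were left out, with 0 columns of other samples. The platform annotation gave 13647 of 18769 fly probe sets 1 symbol, 402 several and 4720 none, and 13544 of the first matched the Release 6 gene table, used for names and gene order. Values under 16 were raised to 16 and taken to log2, and folds are differences of log2 means. X1 against w1118 (5 arrays), and line 89 against w1118 and X1 against line 89 (7 arrays, 3 groups), were fitted in limma 3.58.1 (R 4.3.3; eBayes, two-sided, Benjamini-Hochberg over 18769 probe sets, called at 0.05), which was tested on simulated data. A gene was read at its brightest probe set. "At least" marks a fold against a group whose arrays were all under 16. Precision is limited by the number of arrays.

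The 4 genes and the lists were chosen with earlier results of these data known. Named were every probe set of the 4 genes, each called neighbour and the nearest on each side, up to 3 called list members in each direction, and the 3 nearest in pattern. The other uncalled neighbours, the runs and the test of X1 against line 89 were added after the values were seen. Alternatives covered floors of 1 and 64, 3 other normalizations (quantile, median, and hybridization scaling, on the hybridization control probe sets), a filter, another variance model, another grouping, a stricter threshold, and leaving out each array. A further alternative, the replicate block fit, added a term for each replicate number to X1 against w1118. The planned search for GAL4 motifs was not made, as promoter sequences were not used here.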

Additional observations from a re-analysis of the deposited data

How the results depend on the processing

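The 4 genes stayed higher than w1118 under every alternative run, in X1 (medians over the 4 of 4.97 to 5.89) and line 89 (5.13 to 5.93). That sign is no check, since the same arrays chose the genes and every GAL4 value exceeded both w1118 values. Leaving out an X1 array cannot move the line 89 differences. The upper ends, 5.89 and 5.93, came with hybridization scaling, which multiplies each array by 1 factor. Differences between values above the floor therefore shifted alike, such as CG3625 from 5.57 to 6.24 and U2af38 from 2.89 to 3.56 in X1. The median over all probe sets, which includes values at the floor, shifted by 0.34 in X1 and 0.40 in line 89. The median of X1 minus line 89, -0.10, turned to 0.14 with median scaling and ran from -0.25 to 0.092 without single arrays. Signs turned for CG3625 (-0.037 with quantile normalization, and -0.078 to 0.15 without single arrays), Amnionless (-0.65 to 0.030 without single arrays), CG11562 (0.0031 with median scaling) and Sf3b6 in X1 against w1118 (0.36 with hybridization scaling).

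Counts of calls were less stable, and the cause was not tested. In X1 against w1118, 1407 rises and 1997 falls became 720 and 674 with a floor of 64, 624 and 606 with all 5 GAL4 arrays as 1 group, 602 and 579 at adjusted p under 0.01 and 0 and 0 in the replicate block fit (limma; 4491 at an unadjusted p under 0.05); falls were 1201 with a floor of 1 and 530 with hybridization scaling. In line 89, 513 rises and 309 falls became 286 and 203 (floor of 64), 1252 and 87 (hybridization scaling) and 138 and 59 (adjusted p under 0.01), with falls of 64 (floor of 1), 185 (filter at 100) and 606 (1 GAL4 group).

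For neighbours in X1, 1 rise became 0 with a floor of 64, 1 GAL4 group, adjusted p under 0.01 or the block, and 2 with hybridization scaling; 6 falls became 3 (floor of 64) and 0 (block). In line 89 falls became 1 at adjusted p under 0.01. Between X1 and line 89, 0 rises became 1 with the filter. For the 4 role lists in X1, 13 rises became 7, 8, 5 and 0 with a floor of 64, 1 GAL4 group, adjusted p under 0.01 and the block, and 11 falls 5, 2, 3 and 0; falls were 6 (floor of 1), 7 (median scaling) and 2 (hybridization scaling). In line 89, 4 rises became 7 (hybridization scaling), 8 (1 GAL4 group) and 1 (adjusted p under 0.01), and 2 falls became 1 (floor of 1, adjusted p under 0.01). Of the 12 nearest genes, 7 were found with a floor of 64 and 2 by Pearson r.

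Without single arrays the median of the 4 genes was 5.13 to 5.37 in X1 and 5.13 to 5.58 in line 89. Over all probe sets rises and falls were then 692 to 1939 and 848 to 2231 in X1 and 175 to 1201 and 79 to 603 in line 89. For neighbours they were 0 to 1 and 4 to 6 in X1 and 0 to 1 and 1 to 5 in line 89, with 0 to 1 falls between X1 and line 89. For the lists they were 5 to 13 and 5 to 12 in X1 and 1 to 6 and 1 to 6 in line 89. Same-numbered X1 and w1118 arrays deviated from their group means with correlations of -0.05 and -0.01. With 2 w1118 arrays the deviations of w1118 mirror each other, so these correlations cannot decide whether the replicate numbers pair the arrays. The main fit took the arrays as unpaired. The planned search for GAL4 motifs in promoters was not run. Array number, and for CG11562, CG11911 and CG43755 signal near the floor, limit the precision.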
